A study of Mus musculus with 3 samples.

Results

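The T lineage genes Cd3d, Cd3e, Cd3g, Cd4, Cd8a, Cd7, Thy1, Lck, Gata3 and Tcf7 were followed across leukemia and control bone marrow. These 10 genes were chosen by symbol, matched through their NCBI Gene IDs, and all 10 were among the 16742 genes listed in any of the 3 RNA-seq libraries. A gene that a library did not list was read as 0 there.

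Each condition was 1 library made from 3 pooled mice on the C57BL/6 background, whose age the labels give as 6 to 8 weeks. The control library came from wild-type mice and held lin- bone marrow cells, which remain after cells with mature lineage markers are depleted. The methods name a lineage depletion kit for such cells, and kits of this kind carry an antibody to the T cell antigen CD5. The TR1 and TR9 libraries held GFP+ bone marrow cells, sorted from the third generation of mice carrying TR leukemia, an acute promyelocytic leukemia model driven by the fusion protein TBLR1-RARα (TR). A retrovirus put TR into lin- cells and carried GFP on the same transcript, and TR1 and TR9 are lines that were each passaged from 1 primary leukemic mouse. Control and TR cells were thus isolated differently, which cannot be told apart from the leukemia itself, and with 1 library per condition no spread between mice is known.

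T cells recognise antigen through a receptor that signals with the CD3 chains, helped by the coreceptors CD4 and CD8 and by LCK, the kinase bound to them. GATA3 and the T cell factor encoded by Tcf7 switch on and maintain the T cell programme in thymocytes. Several of these genes are not restricted to T cells: Thy1 is also carried by mouse stem cells and by stroma, Cd7 by NK cells, and Gata3 and Tcf7 by innate lymphoid cells. In bulk RNA, fewer cells of a type and less RNA per cell cannot be told apart.

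The stretches before the start sites of the 3 CD3 genes and of Tcf7 are shown because the CD3 genes lie side by side on chromosome 9 while Cd3d had more counts than the others, and because Tcf7 differed most between TR1 and TR9 among the members with a ratio. They were taken from the RefSeq promoter table of GRCm38.p6, run 5′ to 3′ on the gene's strand, and are cut to the part outside annotated exons. Capitals mark E boxes (CANNTG, bound by E proteins), GATA motifs (GATAA) and a core motif of retinoid and other nuclear receptors (AGGTCA, or TGACCT on the other strand). The search was for single copies of this nuclear receptor motif, not for paired copies. For Tcf7, the window that holds the nuclear receptor motif was picked for print. On the minus strand it lies downstream of the other Tcf7 start site, and the printed stretch follows bases of an annotated exon. It is thus not the stretch before the upstream start site of the gene. The window of that upstream site (chr11:52283015-52283264) lacks the nuclear receptor motif and is not shown.
Cd3d (chr9:44981536-44981785, plus strand): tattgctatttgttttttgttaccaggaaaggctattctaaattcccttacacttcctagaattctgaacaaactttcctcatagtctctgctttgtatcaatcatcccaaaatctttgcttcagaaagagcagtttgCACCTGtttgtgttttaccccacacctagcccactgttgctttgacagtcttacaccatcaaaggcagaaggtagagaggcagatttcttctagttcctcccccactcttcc
Cd3e (chr9:45009628-45009861, minus strand): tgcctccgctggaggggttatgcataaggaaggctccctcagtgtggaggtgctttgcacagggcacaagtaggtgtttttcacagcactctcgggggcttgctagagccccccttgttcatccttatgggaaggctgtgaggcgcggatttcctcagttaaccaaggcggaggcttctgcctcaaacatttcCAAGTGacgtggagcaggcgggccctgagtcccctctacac
Cd3g (chr9:44980432-44980681, minus strand): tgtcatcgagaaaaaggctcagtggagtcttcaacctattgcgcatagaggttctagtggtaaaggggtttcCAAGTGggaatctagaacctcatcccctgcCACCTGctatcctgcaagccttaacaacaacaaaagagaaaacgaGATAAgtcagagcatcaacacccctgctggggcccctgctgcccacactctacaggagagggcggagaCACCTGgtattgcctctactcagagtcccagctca
Tcf7 (chr11:52282596-52282711, minus strand): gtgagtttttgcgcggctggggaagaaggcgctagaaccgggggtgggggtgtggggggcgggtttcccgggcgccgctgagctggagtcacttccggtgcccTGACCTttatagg

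Across all members, 7 of 10 had a total of 9 start sites in that table. CANNTG was in 6 of the 9 windows of 250 bases, against 66.2% of all 32851 windows, and GATAA was in 3 of 9, against 22.6%. AGGTCA and TGTGGT (a RUNX motif) were each in 1 of 9 windows, where each was in 14.0% of all windows, and both strands were searched. No match overlapped another in these windows. The counts are of whole windows, exon bases included. The E box and the GATAA of Tcf7 were both in its window that is not shown. The 3 CD3 windows each held an E box, Cd3g with 3. Of the 7 members searched only Tcf7 held the nuclear receptor motif, as a single copy at 1 of its start sites. Thy1, Cd4 and Cd7 were not searched. These letters describe the windows and do not show that a factor binds there.

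Control, TR1 and TR9 had 5488778, 5571409 and 5129662 expected counts (reads that RSEM assigned to a gene, whole or in part), so that 3 counts came to between 0.538 and 0.585 ppm of the library's counts. Levels are given as FPKM, which scale counts by the length of the gene and the total of the library and so can be compared between genes. A gene was called lower or higher where the Poisson test between a pair of libraries passed a false discovery rate of 0.001 and the log2 ratio of FPKM was 1 or more in size. That test compares the libraries, not the conditions, and the 95% intervals below cover counting error only. Over all genes, TR1 had a median log2 ratio to control of -0.29 and TR9 of -0.12, and the TMM factors, which centre most genes, put the offset at -0.239 and -0.106 (log2). The granule genes Elane, Mpo, Ctsg and Prtn3 summed to 7540 ppm in control, compared with 31500 in TR1 and 27400 in TR9. These genes are at their height in promyelocytes.

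The T lineage genes did not change together. Thy1 was called higher in both TR libraries, Tcf7 in TR1, and Cd4 and Cd7 were called lower in both, whereas the CD3 chains, Cd8a, Lck and Gata3 were not called in any comparison. In TR1, 2 of 10 members were lower and 2 were higher, where 13.0% of all genes tested were called lower and 8.09% higher. In TR9, 2 were lower and 1 was higher, against 10.8% and 9.37% of all genes. Under TMM scaling, lower calls over all genes went from 61.7% to 49.1% of the calls in TR1 and from 53.6% to 46.7% in TR9. With so few members called, these counts are not set apart from those shares.

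Most of the members had few counts. Control listed all 10 of them and 8 had over 3 counts, compared with 6 listed and 5 over 3 counts in TR1, and 8 listed and 4 over 3 counts in TR9. Their counts summed to 137.51 in control, next to 1734.34 in TR1 and 797.2 in TR9, and Thy1 alone made up 24.7%, 94.2% and 93.1% of these sums. Without Thy1, the other 9 summed to 18.9 ppm in control, against 18.0 in TR1 and 10.8 in TR9. Relative to control, the log2 ratio of that sum was -0.07 for TR1 (95% interval -0.49 to 0.33) and -0.81 for TR9 (-1.32 to -0.34). The near equal sums of control and TR1 held different genes, with Tcf7 and Cd8a above control in TR1 and Cd4, Cd7 and Gata3 at 0 there.

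**Figure D1:**
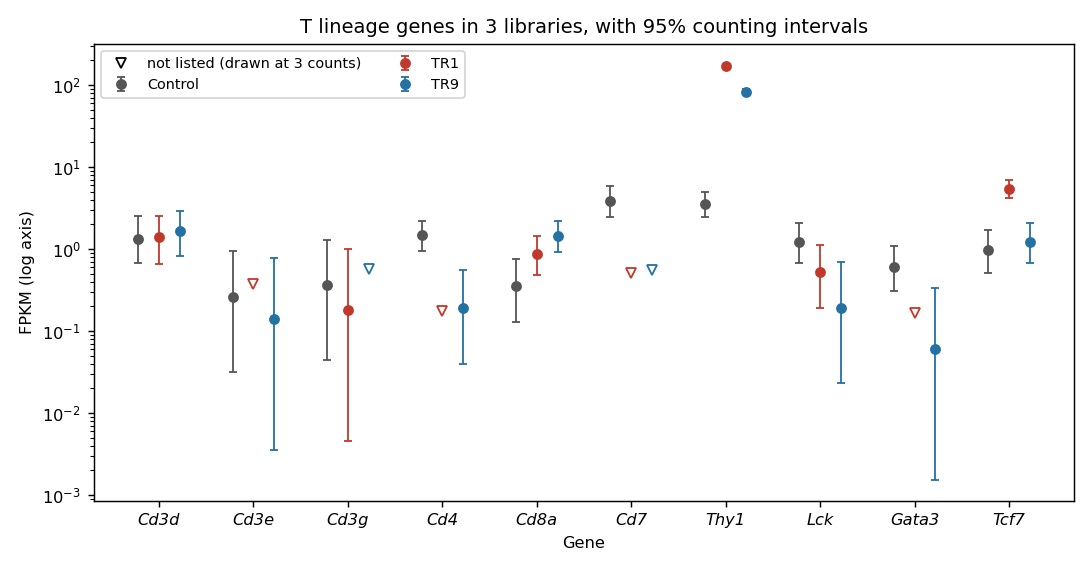
FPKM on a log axis of the 10 T lineage genes in the control, TR1 and TR9 libraries, with bars for the 95% Poisson interval of the count. Open triangles are genes that the library did not list, drawn at the FPKM of 3 counts. Thy1 stands alone at 167.58 FPKM in TR1 and 82.77 in TR9, and no other point exceeds the 5.44 FPKM of Tcf7 in TR1.

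The CD3 chains of the T cell receptor complex had few counts in all 3 libraries. Cd3e, the CD3 epsilon chain, had 2 counts in control, compared with 0 in TR1 and 1 in TR9. Cd3g, the gamma chain, had 2 counts in control, next to 1 in TR1 and 0 in TR9. All of these are at or under 3 counts, so no fold is given. Cd3d, the delta chain, had 9.51 expected counts (1.32 FPKM) in control, against 10.34 (1.41 FPKM) in TR1 and 11.2 (1.66 FPKM) in TR9. The fractions show that RSEM shared part of its reads out to other genes. The 3 levels of Cd3d lay within one another's intervals, with log2 ratios to control of 0.10 (-1.44 to 1.40) in TR1 and 0.33 (-1.14 to 1.63) in TR9. Per length, Cd3d was above Cd3e in all 3 libraries, but in control their intervals (0.666 to 2.55 and 0.0315 to 0.939 FPKM) overlapped. In TR9 the intervals (0.814 to 2.92 and 0.00354 to 0.78 FPKM) did not. Cd247, the zeta chain that NK cells also carry, is no member and was named after its values were seen. It stood higher, with 98 counts (9.4 FPKM) in control, 58 (5.83 FPKM) in TR1 and 64 (6.72 FPKM) in TR9, and was not called.

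Of the coreceptor genes, Cd4 was lower in both TR libraries and Cd8a was not called. Cd4 had 25 counts (1.46 FPKM) in control, compared with 0 in TR1 and 3 (0.19 FPKM) in TR9. It was called lower in both, at least 8.46-fold in TR1 and by a log2 ratio of -2.94 (-5.33 to -1.25) in TR9. The TR9 call rests on 3 counts and did not hold under edgeR's exact test with an assumed variation between mice. Cd8a, the alpha chain of CD8, had 6 counts (0.35 FPKM) in control, next to 15 (0.86 FPKM) in TR1 and 23 (1.44 FPKM) in TR9. Both TR libraries were above control, with log2 ratios of 1.30 (-0.15 to 2.95) and 2.04 (0.70 to 3.62), and neither passed the call, though TR9 passed at a false discovery rate of 0.05. The partner chain Cd8b1 was not listed in any library.

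Lck, the kinase that starts receptor signalling, had 14 counts (1.23 FPKM) in control, against 6 (0.52 FPKM) in TR1 and 2 (0.19 FPKM) in TR9. Both TR libraries were under control, with log2 ratios of -1.24 (-2.91 to 0.23) and -2.69 (-5.89 to -0.59). Neither was called, and at a false discovery rate of 0.05 the one in TR9 was.

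Cd7 and Thy1, surface glycoproteins of the immunoglobulin superfamily that T cells carry early, were at nearly the same level in control and at opposite ends in leukemia. Cd7 had 22 counts (3.88 FPKM, 2.43 to 5.87) in control, the highest FPKM of the 10 genes there, and 0 in both TR1 and TR9. It was called lower in both, 7.44-fold in TR1 and 6.85-fold in TR9 with 3 counts in place of 0. Thy1 had 34 counts (3.55 FPKM, 2.46 to 4.96) in control, compared with 1634 (167.58 FPKM, 160 to 176) in TR1 and 742 (82.77 FPKM, 76.9 to 88.9) in TR9. The 3 intervals did not overlap. Thy1 was 47.2-fold higher in TR1 (log2 ratio 5.56, 5.08 to 6.10) and 23.3-fold higher in TR9 (4.54, 4.05 to 5.09). Among all listed genes, its FPKM stood at percentile 38.5 in control, next to 97.6 in TR1 and 94.5 in TR9. By ratio to control it ranked 311 of 16282 genes in TR1 and 594 of 16303 in TR9. Among genes of at least 10 FPKM in the TR library, those ranks were 63 of 6245 and 105 of 6613.

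Markers of other cells that can carry Thy1 were read beside it. Over all genes, 13.0% were called lower and 8.09% higher in TR1, and 10.8% and 9.37% in TR9. Of 12 stromal and endothelial markers, 9 were lower in TR1 and the same 9 in TR9. The 12 summed to 2860 ppm in control, against 97.5 in TR1 and 236 in TR9. Col1a1 had 6904 counts in control, compared with 71 in TR1 and 31 in TR9, and 1 of the 12 was called higher in each TR library. Named after their values were seen, these were Lepr in TR1 (46.04, 103.49 and 30.85 counts in control, TR1 and TR9) and Pdgfrb in TR9 (146, 273 and 950), which made up most of the sum in TR9. In TR1 6 of the 12 and in TR9 4 of the 12 were at or under 3 counts, with Kdr, Emcn and Lum at 0 in both. Of 11 stem cell markers, 9 in TR1 and 6 in TR9 were lower and 0 were higher, with sums of 774, 169 and 352 ppm, and Hoxa9, Slamf1 and Mycn were at 0 in both. Kit made up most of the stem cell sum in TR1 and TR9, with 2115, 853 and 1684 counts in control, TR1 and TR9, and was not called in TR9. Which cells in the sorted populations held the Thy1 RNA was not tested.

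The transcription factors had different patterns. Gata3 had 11 counts (0.61 FPKM) in control, next to 0 in TR1 and 1 (0.06 FPKM) in TR9. With 3 counts in place of 0, the TR1 level was 3.72-fold under control, and the log2 ratio of TR9 was -3.35 (-8.79 to -0.58). Neither was called, and both were at a false discovery rate of 0.05. Tcf7 had 12 counts (0.98 FPKM) in control, against 68 (5.44 FPKM) in TR1 and 14 (1.22 FPKM) in TR9. TR1 stood apart: Tcf7 was 5.55-fold higher there than in control (log2 ratio 2.47, 1.58 to 3.50). In TR9 it lay within the interval of control, at a log2 ratio of 0.32 (-0.90 to 1.56). The calls of all 10 members against control were the same under TMM scaling.

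**Figure D2:**
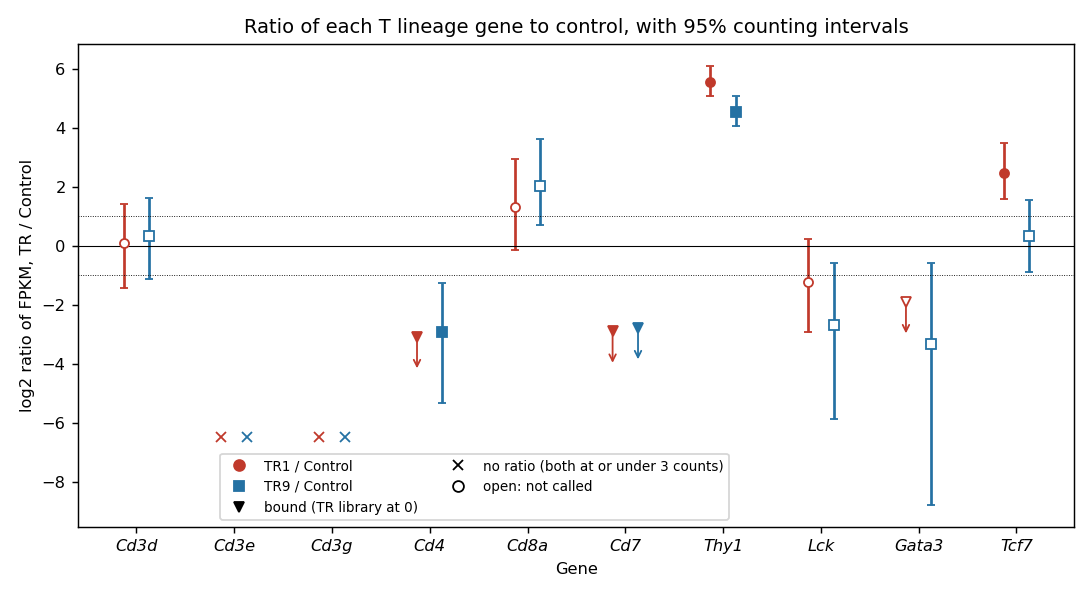
Log2 ratio of FPKM to control of each T lineage gene in TR1 (circles) and TR9 (squares), with 95% counting intervals. Filled symbols are called, open ones are not. Triangles with arrows, marked as bounds, are genes at 0 in the TR library, drawn with 3 counts in place of 0 and without counting error. Crosses at the foot mark genes with no ratio, and dotted lines are at log2 ratios of 1 and -1. Thy1 is far above the upper line in both libraries and Tcf7 in TR1, with Cd4 and Cd7 below the lower one.

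The order of the 10 genes by FPKM also differed between libraries. In control, Cd7 and Thy1 led, and their intervals overlapped each other but not that of Cd4, the next (0.945 to 2.16 FPKM). Below Cd4 came Cd3d, Lck, Tcf7, Gata3, Cd3g, Cd8a and Cd3e, each with an interval that overlapped that of its neighbour. The interval of Cd3d (0.666 to 2.55 FPKM) also overlapped those of Cd7 and Thy1. In TR1, Thy1 was followed by Tcf7 (4.22 to 6.90 FPKM), and then by Cd3d, Cd8a, Lck and Cd3g, whose intervals overlapped from each to the next. In TR9, Thy1 was followed by Cd3d, Cd8a and Tcf7 with overlapping intervals, and then by Cd4 and Lck at 0.19 FPKM each, Cd3e and Gata3. The interval of Thy1 was thus apart from those of all other members in TR1 and TR9, whereas in control it overlapped those of Cd7 and Cd3d.

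TR1 and TR9 were also compared with each other, which needs no control cells and sets 2 sorts of the same kind side by side. Thy1 and Tcf7 were both lower in TR9, so 2 of the 9 members listed were called lower and 0 higher, where 2.31% of all 15706 genes were called lower and 4.34% higher. The log2 ratio of TR9 to TR1 was -1.02 (-1.15 to -0.89) for Thy1, close to the limit of 1 in size that a call needs, and -2.16 (-3.11 to -1.32) for Tcf7. Neither was called by edgeR's exact test with an assumed coefficient of variation of 0.2. Cd8a had a ratio of 0.74 (-0.26 to 1.78), Cd3d of 0.24 (-1.12 to 1.65) and Lck of -1.45 (-4.81 to 1.02), none of them called. The other 4 listed members had 3 counts or fewer in both TR libraries, as did Cd7, listed in neither. The 9 members other than Thy1 summed to 100.34 counts in TR1 and 55.2 in TR9, a log2 ratio of -0.74 (-1.25 to -0.25).

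**Figure D3:**
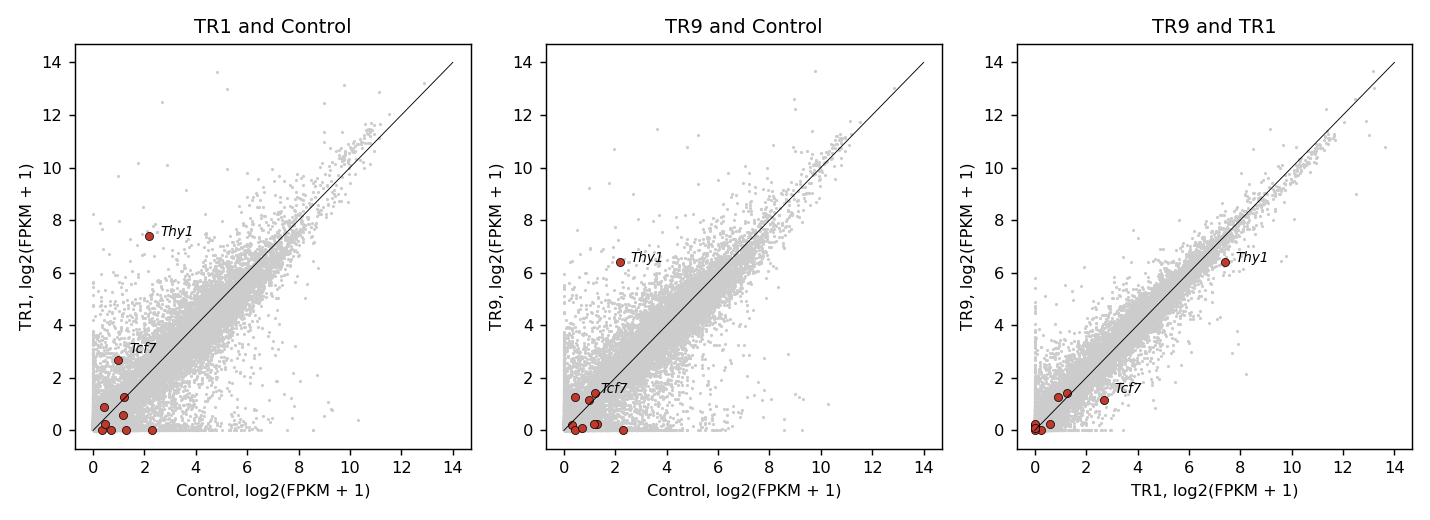
Log2(FPKM + 1) of all genes (grey) and of the 10 T lineage genes (red) for TR1 and control, TR9 and control, and TR9 and TR1, with the line of equal levels. Thy1 lies far above the line in the first 2 panels and just below it in the third. The other members sit near the origin, Tcf7 being the highest of them in TR1.

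The wider T cell programme was read from 3 lists of other genes, 63 in all. Against control in TR1, 13 of the 60 listed were called lower and 6 higher, with a median log2 ratio of -1.10, and in TR9 14 of 61 were lower and 5 higher, with a median of -1.51. Over all genes, 13.0% were lower and 8.09% higher in TR1, and 10.8% and 9.37% in TR9, which is the background for every list below. The medians rest on genes near 0. With counts under 3 raised to 3 they were -0.22 and -0.19, compared with -0.10 and 0.07 over all genes. The same change took the medians of the 10 members from -1.12 to -0.02 in TR1 and from -1.79 to 0.10 in TR9.

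Of 20 genes of T cell receptor signalling, 4 were lower and 2 higher in TR1, and 4 were lower and 0 higher in TR9, beside 13.0% and 8.09% of all genes in TR1 and 10.8% and 9.37% in TR9. The rest, most of the list, were not called. Prkcq, which encodes the kinase PKC theta, had 251 counts in control and none in TR1 or TR9. With 3 counts in place of 0, it was 84.9- and 78.2-fold lower there. The adaptor gene Grap2 had 130.34, 6.38 and 8.09 expected counts in control, TR1 and TR9 and was lower in both. Ptprc, which encodes the pan-leukocyte phosphatase CD45, had 954 counts in control, 2369 in TR1 (called higher) and 539 in TR9, and Vav1, active in all blood lineages, had 676.03, 1156.28 and 912 and was not called. Some genes of the T cell lists were hardly detected in any library. Chosen after their values were seen, Zap70 and Themis had 3 counts in control and 0 in TR1 and TR9. Cd5, Cd2, Lef1 and Bcl11b had 3.16 or fewer in any library. Other genes of these lists had more, such as Ubash3a (363, 445 and 321 counts) and Lat (138, 233 and 71), also chosen after the fact. Some named below were called higher in a TR library. The second receptor signalling gene called higher in TR1, also named after its value was seen, was Trat1, an adaptor of the receptor complex, with 0, 21 and 6 counts.

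Of 18 T cell surface and cytokine receptor genes, 4 were lower in each TR library, with 3 higher in TR1 and 2 in TR9, on the same background. Cd27, a costimulatory receptor, had 149 counts in control, compared with 1.39 in TR1 and 1 in TR9. Cd96 had 24, 0 and 0, and S1pr1, which guides lymphocytes out of tissues, had 29, 0 and 3. Genes called higher, named after their values were seen, included Cd6 (3, 58 and 12 counts) and Cd40lg (0, 14 and 3) in TR1 and the costimulatory receptor gene Cd28 (11, 3 and 84) in TR9.

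Of 25 T cell factors and thymocyte genes, 5 were lower and 1 higher in TR1, and 6 were lower and 3 higher in TR9, where 10.8% of all genes were lower and 9.37% higher. Dntt, the terminal transferase of lymphoid progenitors, fell from 155 counts to 0 in TR1 and TR9 alike. Ikzf3 had 35, 0 and 0, and Zfpm1, a GATA cofactor of erythroid cells and megakaryocytes as well, had 1523, 1 and 9. Ikzf1, a regulator of lymphoid commitment, had 3280, 1516 and 1227 counts and was called lower in both. Those called higher, again named after the fact, included Zbtb7b (168, 444 and 278 counts), a factor of the CD4 lineage, in TR1, and in TR9 Notch1 (403, 591 and 838) and Ets1 (247, 440 and 1032).

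**Figure D4:**
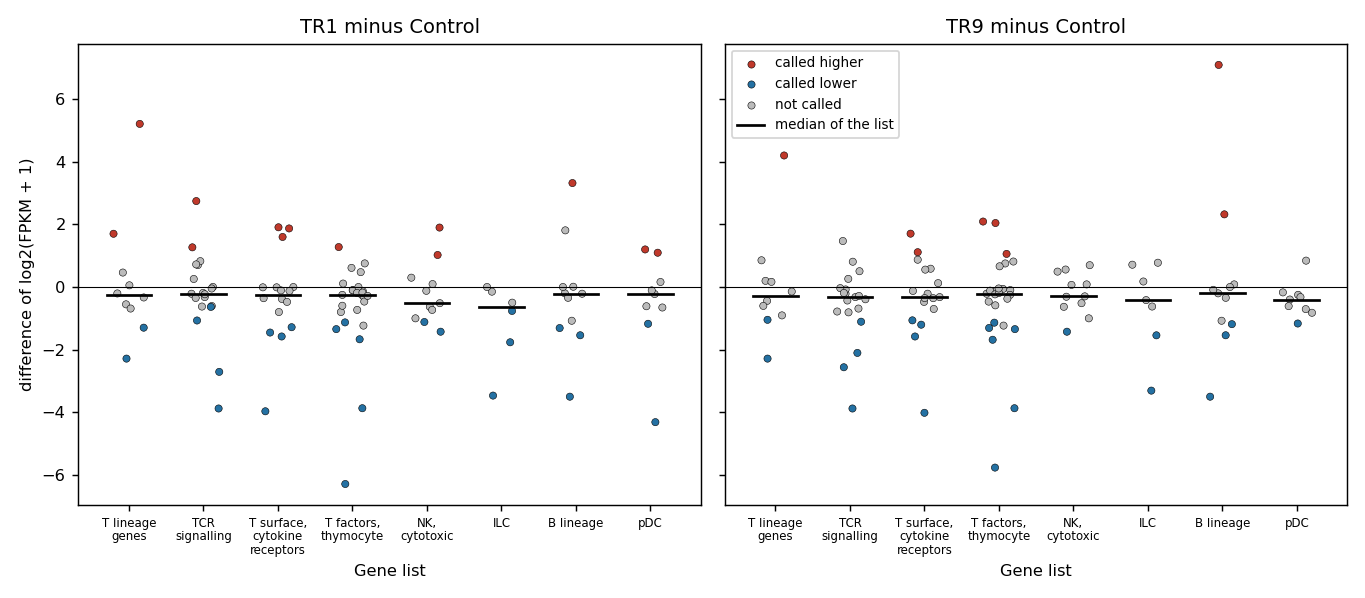
Difference in log2(FPKM + 1) between each TR library and control for the 10 T lineage genes and 7 lists of lymphoid and plasmacytoid dendritic cell (pDC) genes, 1 point per gene, coloured by call, with bars at the medians. Every list has genes called lower in both panels, the medians lie just below 0, and Thy1 is the highest point of the T lineage genes.

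Markers of other cells that carry some of the members were read beside them, again with 13.0% lower and 8.09% higher of all genes in TR1 and 10.8% and 9.37% in TR9. With lists this short, nothing is read from counts of 1 to 3 genes against those shares. Of 13 NK and cytotoxic genes, 2 were lower and 2 higher in TR1, and 1 was lower in TR9. Their summed level was 86.6 ppm in control, next to 165 in TR1 and 131 in TR9, with 7, 10 and 9 of the 13 at or under 3 counts. Nkg7 gave most of it with 412, 857 and 628 counts, whereas Gzmb had 13, 0 and 0. Of 8 innate lymphoid genes, 3 were lower in TR1 and 2 in TR9, and their sum was 113, 19.1 and 36.3 ppm. Il1rl1, shared with mast cells, had 398.60, 13.21 and 16.51 counts, and all 7 mast cell and basophil markers were lower in both TR libraries. Of 10 pDC markers, 2 were lower and 2 higher in TR1 and 1 was lower in TR9, with sums of 347, 228 and 250 ppm. The part of these cells in the Cd4, Cd7 and Gata3 levels of control was not tested.

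The B lineage, the other branch of lymphoid cells, gave 3 of 12 markers lower in each TR library, Cd79b (69, 0 and 0 counts) and Pou2af1 (27, 0 and 0) among them. Igll1, a surrogate light chain of the pre-B cell receptor, was higher in both, with 2, 63 and 847 counts, alongside 1 other marker in TR9. The markers summed to 33.4 ppm in control, against 23.4 in TR1 and 180 in TR9, the last mostly Igll1.

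The genes nearest to a member were found from log2(FPKM + 1) over the 3 libraries by Euclidean distance, for the 4 members with at least 30 counts over all 3. Nearest to Thy1 were Mgam (distance 0.327), a glucosidase gene, with 4.56, 185.97 and 84.64 FPKM in control, TR1 and TR9, then Mcemp1 (0.333) and Mrgpra2b (0.429). All 3 had the same order of libraries as Thy1, which follows from picking them by nearness over these libraries. Tcf7 had Tlr1 (0.061), a receptor for bacterial lipopeptides, at 0.99, 5.65 and 1.16 FPKM, then Fam110c (0.316) and H3c11 (0.350). Nearest to Cd3d were Mylk2 (0.059), Snap25 (0.066) and Klhl8 (0.068), and to Cd8a B430212C06Rik (0.100), F730035M05Rik (0.114) and Tmem82 (0.129), all at under 2 FPKM, where a few reads set the distance. With 3 libraries, such nearness is a description of these values alone.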

How the data were processed

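RNA was sequenced from 3 libraries, 1 per condition, grouped by the sample labels. Per the methods, the authors filtered the reads, aligned the clean ones with BWA and Bowtie and estimated gene levels by RSEM. The submitters' processing notes name mm9, and software versions are not given in the sources used here. The authors deposited for each gene an expected count, not normalized and not always whole, and an FPKM scaled by gene length and library total.

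Genes were matched by NCBI Gene ID to RefSeq names of GRCm38.p6 (16698 of 16742 IDs). After rounding, each pair of libraries was tested on expected counts by the exact Poisson test conditional on their sum, the type of test the study's methods name, and p-values were adjusted by Benjamini and Hochberg's procedure over all genes listed in either library. Ratios are of FPKM, with values under 0.01 set to 0.01. Where a library was at 0, the fold was taken with 3 counts in place of 0. It leaves out the counting error of both libraries and is not a 95% limit. Intervals are exact at 95% (Clopper-Pearson for ratios, Poisson for counts). Promoter windows were the 250 bases before each RefSeq start, cut for print to bases outside GENCODE M21 exons.

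The members and lists were chosen with earlier results of these data known. All 10 members were named. From each list the rule took the 3 genes with the greatest mean change among those called the same way in TR1 and TR9 and the 2 highest in control, of which the text gives a part, and for members with at least 30 summed counts it took the 3 nearest genes. Other genes are marked in the text or serve as defining markers, and a few list genes are counted but not reported by name here. There were 7 alternatives: FPKM floored at 0.001 or with 1 added, genes of 10 or more expected counts alone, TMM scaling, the exact test of edgeR at a biological coefficient of variation set to 0.2, a false discovery rate of 0.05 and a log2 ratio of 2 or more in size. The steps were tested on simulated Poisson counts without variation between mice. Changes were placed only in genes with more counts than most members had, so changes in the low members were not covered. Python 3.11.15, numpy 2.4.6, pandas 2.3.3, scipy 1.17.1, matplotlib 3.10.9, R 4.3.3 and edgeR 4.0.16 were used.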

Additional observations from a re-analysis of the deposited data

Results flagged for a closer look

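The change of Thy1 against control differed between the TR lines: compared directly, TR9 was lower than TR1 by the Poisson test, with a log2 ratio of -1.02 (95% interval -1.15 to -0.89). The change of Tcf7 differed likewise, with a log2 ratio of TR9 to TR1 of -2.16 (-3.11 to -1.32). Both comparisons are of the reads of 2 libraries, each of 3 pooled mice.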

How the results depend on the processing

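None of the ratios of the members changed direction under TMM scaling, the only one of the 7 alternatives that could turn a direction. A changed floor or an added FPKM keeps the sign, and the others change the test or its limits but not the ratio. Over all alternatives, 146 calls of a member were compared with the main ones. Of these, 138 stayed on their side of the threshold, 4 passed it newly and 4 no longer passed it. Many could not have moved both ways: the looser false discovery rate could only add calls and the log2 limit of 2 could only remove them. The lower floor could not remove any. The 138 is therefore no measure of how robust the calls are. A pseudocount of 1 FPKM changed no call of a member but shrank the ratios of low genes, among them Cd4 in TR9 from -2.94 to -1.05, Cd8a in TR9 from 2.04 to 0.85 and Tcf7 in TR1 from 2.47 to 1.70 (log2). With edgeR's exact test at an assumed coefficient of variation of 0.2, members called lower were 1 in TR9 against control, without Cd4, and 0 in TR9 against TR1, without Thy1 and Tcf7. That test called 992 genes lower and 657 higher in TR1, 830 and 717 in TR9, and 94 and 188 in TR9 against TR1. With an absolute log2 ratio of at least 2, these counts were 1133 and 685, 928 and 738, and 135 and 283, and members lower in TR9 against TR1 were 1, without Thy1. At a false discovery rate of 0.05, members called in TR9 against control were 4 lower, with Lck and Gata3 added, and 2 higher, with Cd8a added, and Gata3 was also lower in TR1. TMM scaling moved the split of calls in TR1 from 2120 lower and 1318 higher (61.7% lower) to 1615 and 1673 (49.1% lower) and in TR9 from 1766 and 1527 to 1503 and 1717, and left the calls of the members as they were. Depth limits Cd3e and Cd3g, at or under 3 counts everywhere, for which no direction can be given. No paired analysis was possible because each condition had 1 library, and for that reason no replicate could be left out.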

Other observations

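The genes beside the members on their chromosomes were read after their values were seen. Next to Cd3e lies Mpzl2, a cell adhesion gene, at 0 in control against 51 counts in TR1 and 22 in TR9, called higher in both TR libraries, and beyond it Mpzl3 with 0, 13 and 3, called higher in TR1. Ube4a, on the other side of the CD3 genes, had 798, 495 and 622 counts and was not called. Beside Thy1, Nectin1 had 14, 21 and 15 counts and was not called, and Usp2 had 22, 36 and 73 and was called higher in TR9 against both control and TR1. Lag3, which lies beside Cd4, was lower in both TR libraries like Cd4 itself, having 25.64 counts in control, then 2.31 in TR1 and 1.09 in TR9. The neighbours of Tcf7 did not share its high level in TR1, Skp1 having 1428, 841 and 1005 counts and Vdac1 1307, 637 and 665.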
